A study of Mus musculus with 9 samples.

Results

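The 9 genes described here (Pltp, Apoe, Abca1, Abcg1, Lpl, Trem2, Nr1h3, Lipa and Gpnmb) act in the handling of lipids by macrophages, and all 9 were found by symbol among the 30406 genes common to the 9 single-cell libraries. They were chosen from these same data, because Pltp was highest in the macrophages of Per2-/- cultures, so every difference between Per2-/- and the other genotypes in macrophages is given as a description with no test. The cultures were mouse embryonic fibroblasts (MEFs), taken from embryos at day 13.5 of gestation and pooled from 4 embryos per dish, of WT, Per1-/- (Per1tm1Drw) or Per2-/- (Per2tm1Drw) genotype. All were transduced with doxycycline-inducible transcription factors, which turn part of the fibroblasts into induced neurons, and were then kept in serum-free N3 medium with doxycycline. Cells were taken on days 4, 7 and 10, with 1 library for each genotype and day, so no group had a replicate. Per1 and Per2 are repressors of the circadian clock, and the deletions were present in every cell of a culture, not in macrophages alone.

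Macrophages take up lipoproteins, dead cells and debris and must either store, break down or export the lipid they receive. Cholesterol esters are cleaved in the lysosome by the acid lipase made from Lipa. Free cholesterol leaves through the transporters Abca1 and Abcg1 towards particles that carry apolipoprotein E, the product of Apoe, and phospholipid transfer protein, the product of Pltp, moves phospholipid between such particles. Nr1h3 encodes LXR alpha, a nuclear receptor for oxidised cholesterol that is known to raise Abca1, Abcg1, Apoe, Pltp and Lpl. Lpl encodes lipoprotein lipase, which releases fatty acids from triglyceride. Trem2 is a surface receptor for lipids and lipoproteins, and Gpnmb is a glycoprotein of lysosomes and the cell surface that is high in lipid-laden macrophages.

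In the GRCm38 assembly Pltp lies at chr2:164839518-164857711 on the minus strand, Apoe at chr7:19696109-19699188 (minus), Abca1 at chr4:53030787-53159895 (minus), Abcg1 at chr17:31057675-31117988 (plus), Lpl at chr8:68880491-68907448 (plus), Trem2 at chr17:48346401-48354147 (plus), Nr1h3 at chr2:91184061-91202834 (minus), Lipa at chr19:34492318-34527474 (minus) and Gpnmb at chr6:49036546-49070929 (plus). A promoter sequence from RefSeq (GRCm38.p6) was matched for 7 of the 9, all but Abcg1 and Lpl. Those of Pltp, Apoe and Abca1 are shown because these genes are classical LXR targets that behaved differently in the libraries below. Each is the 250 bases before the transcription start, read 5′ to 3′ along the gene, at chr2:164857709-164857958 (minus), chr7:19699189-19699438 (minus) and chr4:53159896-53160145 (minus), and capitals mark a match to any of the motifs searched.
Pltp: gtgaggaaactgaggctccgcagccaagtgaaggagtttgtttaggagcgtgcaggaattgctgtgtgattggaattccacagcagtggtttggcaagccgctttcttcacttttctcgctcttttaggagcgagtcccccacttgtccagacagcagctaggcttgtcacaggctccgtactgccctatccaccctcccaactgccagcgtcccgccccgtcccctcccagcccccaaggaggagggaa
Apoe: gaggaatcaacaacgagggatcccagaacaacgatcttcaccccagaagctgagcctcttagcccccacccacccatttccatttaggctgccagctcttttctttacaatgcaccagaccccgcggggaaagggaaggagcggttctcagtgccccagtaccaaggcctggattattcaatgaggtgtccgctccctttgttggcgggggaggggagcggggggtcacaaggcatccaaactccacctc
Abca1: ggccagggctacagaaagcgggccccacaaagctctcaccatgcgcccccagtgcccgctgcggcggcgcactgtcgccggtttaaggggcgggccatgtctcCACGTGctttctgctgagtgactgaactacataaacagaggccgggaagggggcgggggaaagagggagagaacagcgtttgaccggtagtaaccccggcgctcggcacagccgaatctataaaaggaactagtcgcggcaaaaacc

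On both strands of these windows, 7 motifs were searched: the LXR element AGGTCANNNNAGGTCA, the nuclear receptor hexamer AGGTCA that it contains, the E-box CACGTG to which the clock proteins bind, the related element CATGTG, the PU.1 element AGGAAGTG, the D-box TTATGTAA and the sterol element TCACNCCAC. The Abca1 window held the E-box, 147 to 142 bases before the start, and the Trem2 window held TGACCT, the reverse complement of the receptor hexamer, 68 to 63 bases before the start. The windows of Pltp, Apoe, Nr1h3, Lipa and Gpnmb held none of these letters. Only the start nearest the 5′ end of each gene was searched, while Apoe had 3 starts and Nr1h3 had 2. The Nr1h3 window, at chr2:91195117-91195366 (minus), lies inside the gene span given above. Among all 32851 promoter windows of the table searched, the E-box was present in 6.02%, the hexamer in 14.0%, CATGTG in 12.3%, the PU.1 element in 3.14%, the sterol element in 1.05%, the D-box in 0.819% and the LXR element in 0.0152% (5 windows). A match is a description of the sequence and not a site of binding. Only these exact letters were searched, so a miss does not mean that a motif with other letters was absent.

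The libraries held 126625215 to 353198559 UMI (unique molecular identifiers, 1 per captured transcript end), and 73547 cells were kept, with a median of 14389 to 27223 UMI per library. Macrophage-like cells, called from clusters and 20 marker genes, numbered 6459. On day 4 there were 155 (WT), 419 (Per1-/-) and 198 (Per2-/-), on day 7 there were 521, 1401 and 1195, and on day 10 there were 227, 1348 and 995. All 20 markers had UMI in every macrophage-like sum and came to 24746 to 33233 CPM (UMI of a gene scaled to a fixed total per sum), against 21.3 to 124 CPM in fibroblast-like cells. Some libraries stood apart. In WT of day 10, 55.4% of barcodes passed the filters on cells, with a median of 3552 UMI per barcode, against 86.1 to 94.5% and 16135 to 25795 UMI in the other 8, and 41.3% of its kept cells lay in unnamed clusters against 5.48 to 17.9%. Every ratio to WT on day 10 rests on this library, and without it the fitted difference of Per2-/- from WT in macrophage-like cells was 0.71 for Pltp, 2.09 for Apoe and -0.21 for Lpl. Xist was at 0.0656 to 0.0943 CPM in the macrophage-like cells of Per1-/- on days 7 and 10 and at 458 to 974 CPM in the other 7 libraries. Xist is transcribed from the inactive X chromosome of female cells, and the sex of the embryos was not determined, so in Per1-/- of days 7 and 10 genotype and embryo sex cannot be told apart. Xist was at 558 CPM in Per1-/- on day 4, so within Per1-/- neither can day and embryo sex between day 4 and the later days. Per1 transcripts in all cells were at 9.12 to 10.3 CPM in the Per1-/- libraries against 6.31 to 7.90 CPM elsewhere, and Per2 transcripts at 4.97 to 6.43 CPM in Per2-/- against 2.55 to 3.16 CPM, so the 3′ tags of these genes did not check the deletions. Day 10 was counted against another gene annotation than days 4 and 7, and day and annotation cannot be told apart. A cell barcode present in another library was carried by 137 macrophage-like cells.

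Across the cell classes, 6 of the 9 genes (Pltp, Abca1, Abcg1, Trem2, Lipa and Gpnmb) had their highest median level in macrophage-like cells. The classes were themselves built from gene expression, so these levels are a description. As a floor, the macrophage markers in the other classes reached a median of 0.158 to 0.321% of their macrophage level, with single markers up to 5.75%, and whether this came from free RNA, doublets or misplaced cells was not tested. Values are CPM of summed UMI, which do not depend on transcript length, and each is a median over libraries with at least 50 cells of the class. Trem2 was the most restricted, at 1070.5 CPM in macrophage-like cells, 2.10 in fibroblast-like and 3.18 in neuron-like cells, which is near that floor. Gpnmb followed a like order, with 1466 CPM in macrophage-like, 38.3 in Schwann-like and 18.7 in fibroblast-like cells. Abcg1 was at 156 CPM in macrophage-like cells, 18.2 in neuron-like and 16.5 in skeletal muscle-like cells, but at 0.951 in fibroblast-like and 0.589 in Schwann-like cells. Its partner Abca1 was broader, at 446 CPM in macrophage-like, 139 in astrocyte-like, 112 in Schwann-like and 52.6 in fibroblast-like cells. The adipocyte-like cells of Per1-/- on day 10 (54 cells) held Abcg1 at 84.4 CPM and Abca1 at 221 CPM. The macrophage-like cells of that library held 98.9 and 376 CPM.

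Pltp was at 247 CPM in macrophage-like, 71.1 in astrocyte-like, 52.0 in mesothelial-like and 46.5 in fibroblast-like cells, and at 1.47 in neuron-like cells. Among these, the ranges over libraries of the macrophage-like (117 to 418) and astrocyte-like cells (28.7 to 209) overlapped, and so did those of the astrocyte-like, mesothelial-like (44.9 to 59.1) and fibroblast-like cells (29.1 to 63.4). Lipa was at 553 CPM in macrophage-like and 170 in Schwann-like cells. The remaining 3 genes had their highest median in the adipocyte-like cells, a class that reached 50 cells only in Per1-/- on day 10 (54 cells). There Apoe was at 6062 CPM, Lpl at 10449.5 CPM and Nr1h3 at 109 CPM, while the macrophage-like cells of the same library held 602, 495 and 9.31 CPM. The medians in macrophage-like cells over all libraries were 4688, 1349.6 and 21.8 CPM, and Apoe in this library was the lowest of the macrophage-like range of 602 to 15094 CPM, below the 798 CPM of its fibroblast-like cells. Apoe was also at a median of 2674 CPM in astrocyte-like, 1022 in Schwann-like, 740.3 in skeletal muscle-like and 223 in fibroblast-like cells. Lpl in the other named classes did not exceed a median of 79.4 CPM.

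**Figure D1:**
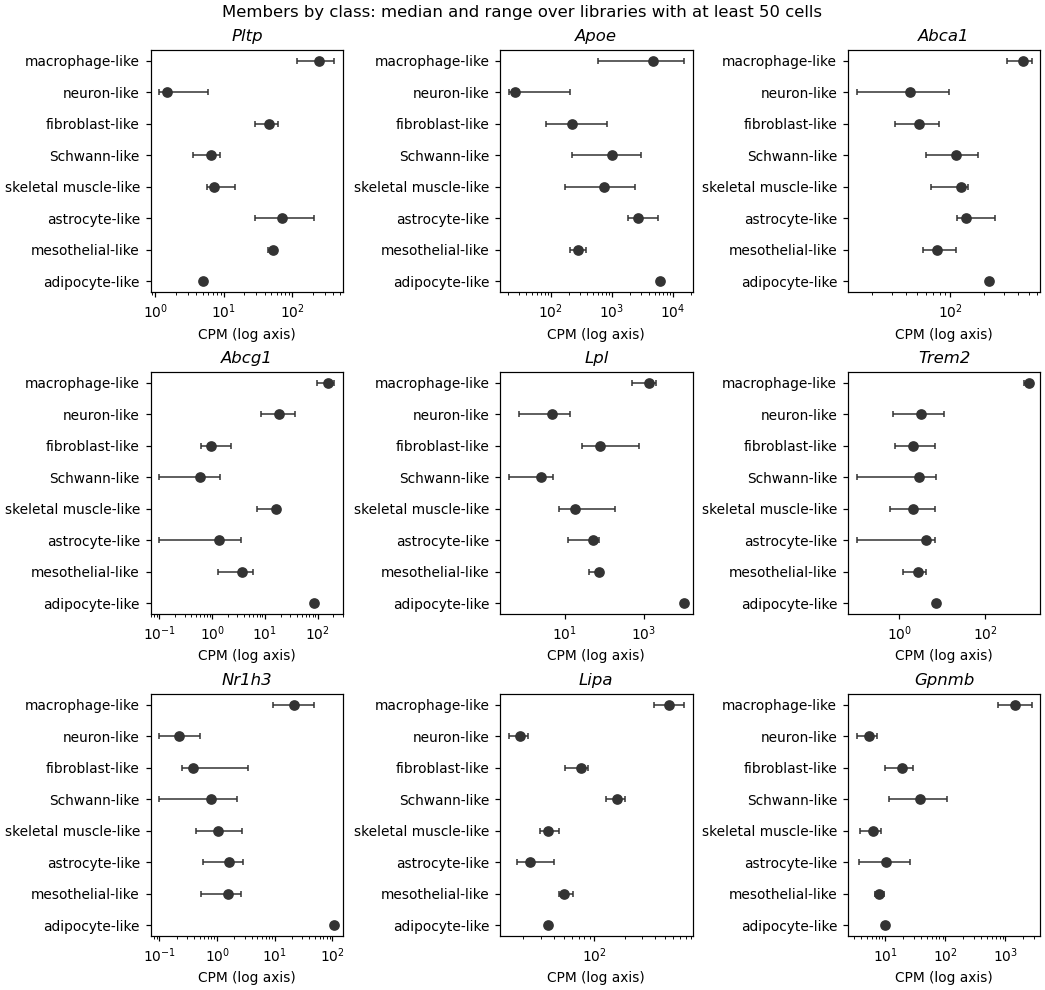
Level of each of the 9 genes by cell class, with CPM on a log axis, the median over libraries as a point and the lowest to highest library as a bar (values of 0 are drawn at 0.1). Trem2, Gpnmb and Abcg1 separate macrophage-like cells from most classes, whereas in the adipocyte-like cells of the only library that held 54 of them Lpl (10449.5 CPM) and Apoe (6062 CPM) lie above the macrophage-like cells of that library (495 and 602 CPM), and Apoe lies within the macrophage-like range over libraries.

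Pltp kept the same order of genotypes on all 3 days in macrophage-like cells, with WT lowest and Per2-/- highest. On day 4 it was at 117 CPM in WT, 124 in Per1-/- and 198 in Per2-/-, with 95% Poisson intervals of 106 to 128 in WT and 119 to 130.2 in Per1-/-. The day 7 libraries held 241, 247 and 360.1 CPM in the same order, and those of day 10 held 273, 278 and 418 CPM. That Per2-/- was highest is how the list was chosen, and WT and Per1-/- lay next to each other. Per2-/- stood at 1.70 (1.51 to 1.91), 1.49 (1.43 to 1.55) and 1.53 (1.45 to 1.62) times WT on days 4, 7 and 10, where the intervals cover counting error only. Per1-/- stood at 1.07 (0.962 to 1.19), 1.02 (0.981 to 1.07) and 1.02 (0.964 to 1.08) times WT, so each interval held 1. Across the 3 days the fitted log2 difference of Per2-/- from WT was 0.71 ± 0.09 (SE), beside a median of 0.01 over all genes. The choice was made from these same values, so neither the difference nor its SE is support for it.

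The stated reason for choosing the genes did not use the change of Pltp with time, which was tested. The genes and tests were, however, chosen with earlier results of these data known. The 3 genotypes served as the repeats of each day, in an additive model of day and genotype fitted to all genes with edgeR. Pltp rose from day 4 to day 7 by 1.01 ± 0.09 on the log2 scale (edgeR quasi-likelihood test, Benjamini-Hochberg adjusted p = 0.0172), and it rose in each genotype: 2.07-fold (1.87 to 2.29) in WT, 1.98-fold (1.89 to 2.09) in Per1-/- and 1.82-fold (1.69 to 1.95) in Per2-/-. It was the only 1 of the 9 members called in this comparison, in which 35 of 12683 genes were called higher (0.276%) and 16 lower (0.126%). From day 7 to day 10 the ratio was 1.13, 1.13 and 1.16, and the fitted difference of 0.23 ± 0.09 (edgeR, adjusted p = 0.574) did not pass, in a comparison with 0.907% of genes called higher and 0.158% lower. The day 4 to day 7 call was lost without the Per1-/- library of day 4 (adjusted p = 0.128), of day 7 (0.112), without WT on day 10 (0.0591), without all of day 10 (0.0905) and with macrophages taken by a marker gate (0.270), while the log2 difference itself stayed between 0.97 and 1.07 when each library was left out and was 0.88 under the gate.

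Different clusters held most of the macrophage-like cells on different days. Most libraries of days 4 and 7 lay mainly in cluster 17 (56.8 to 71.0% of their macrophage-like cells), Per1-/- of day 7 in cluster 18 (76.0%), Per1-/- of day 10 in cluster 19 (89.5%), and WT and Per2-/- of day 10 in cluster 24 (57.3 and 56.8%). Cluster 22, led by histone and mitosis genes, held the dividing cells, and there Pltp was at a median of 172 CPM over libraries (117 to 203), against 238 (108 to 396) in cluster 17, 243 (142 to 361) in cluster 18, 303 (296 to 461) in cluster 19 and 349 (286 to 412) in cluster 24. Its range overlapped those of clusters 17 and 18. Clusters 19 and 24 held no cells of days 4 and 7, so their levels cannot be told apart from day 10 and its annotation. The cell cycle list came to 1549 to 2109 CPM in the macrophage-like cells of day 4, to 941 to 1960.4 CPM in those of day 7 and to 421 to 1340.3 CPM in those of day 10. It was lowest in Per2-/- on days 7 and 10. In cells with no UMI of that list the Pltp difference between days 7 and 4 was 2.66 on the log2 scale, but this rested on 6 to 10 cells in each library of day 4. Fibroblast markers in the macrophage-like sums ranged from 212 to 709 CPM and were highest in Per2-/- on days 7 and 10 (596 and 709 CPM). Fibroblast-like cells themselves held Pltp at 29.1 to 63.4 CPM, below every macrophage-like sum. The part of clusters, cell cycle or fibroblast RNA in the Pltp values was not tested.

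**Figure D2:**
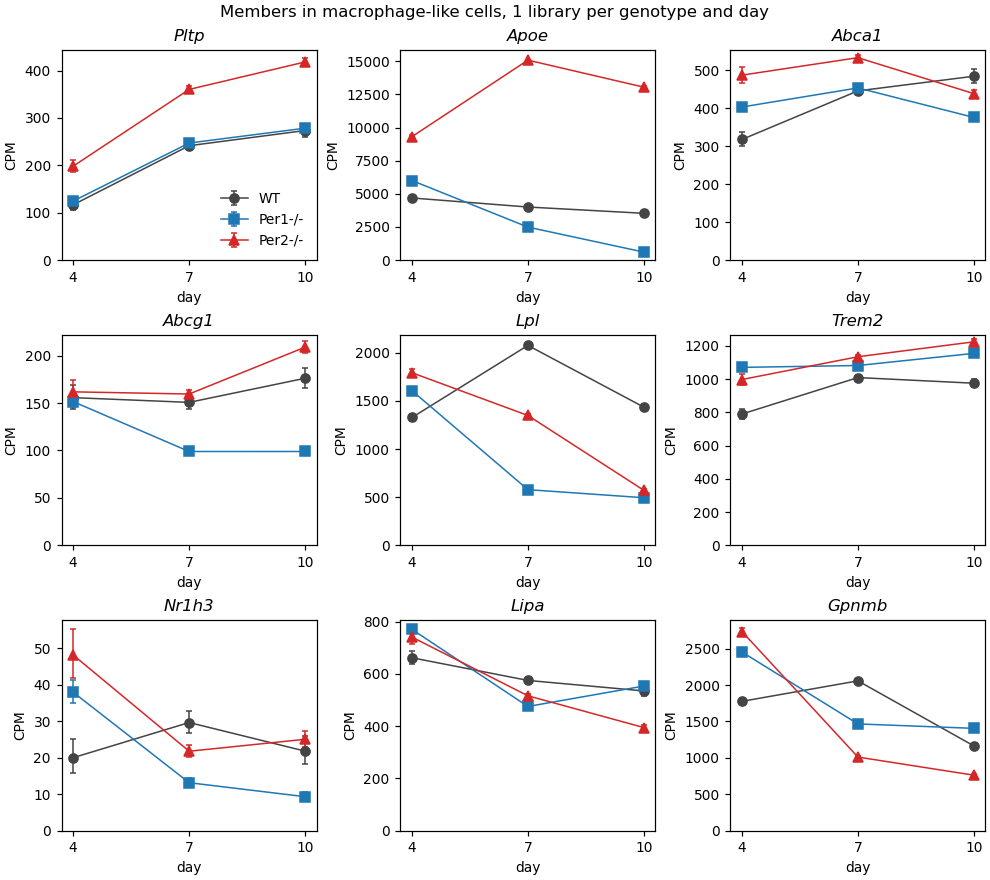
CPM of the 9 genes in macrophage-like cells against day, 1 line per genotype and 1 library per point, with 95% Poisson intervals as bars. Pltp rises in all 3 genotypes and is highest in Per2-/-, where it reaches 418 CPM on day 10, while Apoe spreads from 602 to 15094 CPM.

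Apoe varied most between libraries of all 9 genes. In WT it was at 4688, 4004 and 3529.7 CPM on days 4, 7 and 10, in Per1-/- at 6004, 2487 and 602 CPM, and in Per2-/- at 9317, 15094 and 13052 CPM. Per2-/- was the highest on every day, at 1.99, 3.77 and 3.70 times WT, whereas Per1-/- stood at 1.28, 0.621 and 0.170 (0.167 to 0.174) times WT in the order of days. That interval covers counting error only and not the spread of Apoe between cells, which is described below. The log2 difference of Per2-/- from WT was 1.77 ± 0.56 as a description. The tested difference of Per1-/- from WT did not pass (-0.64 ± 0.57, edgeR, adjusted p = 0.863) and moved to 0.034 without Per1-/- of day 10. Apoe in Per1-/- stood at 0.414 times its day 4 level on day 7 and at 0.242 times its day 7 level on day 10.

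The spread of Apoe was also seen between cells of 1 library. With each cell thinned to 5000 UMI, which left out the few shallower cells, the variance of Apoe UMI per cell was a median of 54.8 times its mean over the 9 libraries (41.1 to 108), against 10.8 for Lpl, 8.17 for Gpnmb and 1.24 to 2.50 for the other 6 genes. This ratio can rise with the mean of a gene, so it does not rank the genes by relative spread. In Per2-/- on day 7 the mean was 85.0 UMI for Apoe and 6.09 for Lpl, with ratios of 54.9 and 12.3. In Per1-/- on day 10 it was 3.49 for Apoe and 6.59 for Gpnmb, with ratios of 54.8 and 6.42. In Per2-/- on day 7, 1.71% of macrophage-like cells held no Apoe UMI and 67.1% held at least 50. In Per1-/- on day 10, 69.3% held none and 1.86% held at least 50. WT lay between, with 29.1 to 38.7% at 0 and 13.4 to 19.2% at 50 or more over its 3 days. Thinning draws UMI at random, and a second draw, used for the shares of all 9 genes given further on, put 70.6% at 0 in Per1-/- on day 10, 1.45% in Per2-/- on day 7 and 27.8 to 38.0% in WT, with at most 1.34 percentage points between the draws in any library. The median cell held 10, 4 and 2 Apoe UMI in WT on days 4, 7 and 10, then 21, 1 and 0 in Per1-/-, and 36.5, 73 and 56 in Per2-/-.

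**Figure D3:**
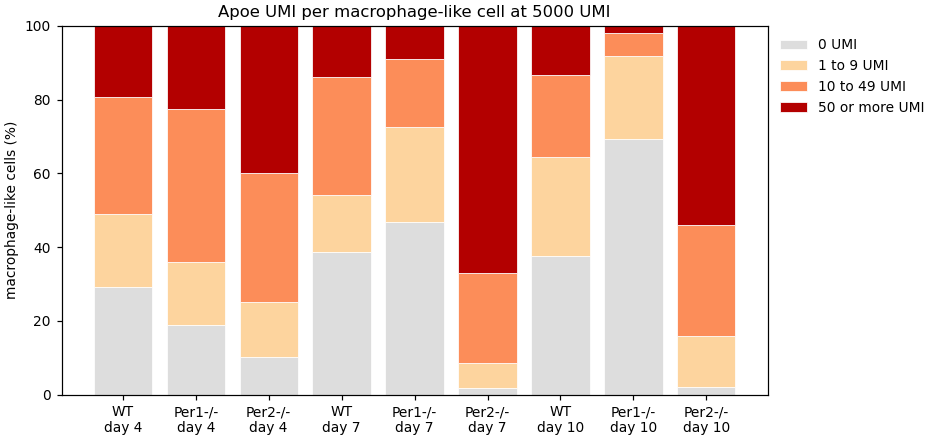
Share of macrophage-like cells (%) in 4 classes of Apoe UMI per cell after thinning to 5000 UMI, 1 bar per library. In the first of the 2 random draws, which is the one plotted, the cells at 0 make up 69.3% in Per1-/- on day 10 and 1.71% in Per2-/- on day 7.

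The shares of macrophage-like cells with at least 1 UMI at 5000 UMI, in the second draw, describe how widely each gene was detected. Trem2 was found in a median of 94.4% of cells over libraries (82.8 to 99.0%), Gpnmb in 85.3%, Lipa in 84.0%, Abca1 in 75.5%, Apoe in 72.2% (29.4 to 98.5%), Lpl in 70.4%, Pltp in 58.8% (39.7 to 75.6%), Abcg1 in 45.2% and Nr1h3 in 8.02%. Without thinning these medians were 97.9, 91.8, 97.5, 93.9, 85.2, 80.2, 88.2, 78.0 and 23.9% in the same order. In neuron-like cells the median shares at 5000 UMI were 1.36% for Trem2, 2.72% for Gpnmb, 8.58% for Lipa, 16.8% for Abca1 (7.68 to 28.3%), 10.2% for Apoe (7.43 to 52.6%), 1.70% for Lpl, 0.938% for Pltp, 7.48% for Abcg1 and 0.124% for Nr1h3. Abca1 and Abcg1 in neuron-like cells had medians of 43.3 and 18.2 CPM, which is 9.72 and 11.7% of the macrophage-like medians and above the share of the macrophage markers.

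The cholesterol exporters Abca1 and Abcg1 differed less between libraries than Apoe did. Abca1 ranged from 318 to 533 CPM over the 9 libraries, with 318, 403 and 487 CPM in WT, Per1-/- and Per2-/- on day 4. The same genotypes held 446, 453 and 533 CPM at day 7 and 484, 376 and 438 CPM at day 10. Per2-/- stood at 1.53 times WT on day 4, at 1.20 on day 7 and at 0.906 on day 10, so its order changed with the day. Abcg1 ranged from 98.9 to 209 CPM. It was at 151 to 162 CPM in all 3 genotypes on day 4, then at 151, 98.9 and 159.5 CPM on day 7 and 176, 98.9 and 209 CPM on day 10, so that Per1-/- was the lowest on both later days. The test of Per1-/- against WT did not pass for Abcg1 (-0.41 ± 0.16, edgeR, adjusted p = 0.673), and the difference ran from -0.64 without Per1-/- of day 4 to -0.22 without Per1-/- of day 10. In that comparison 0 of 12683 genes were called higher (0%) and 1 lower (0.00788%), none of them a member (3 of 9 members had an unadjusted p under 0.05), with 914 genes at an unadjusted p under 0.05 and 28 higher and 34 lower called by DESeq2. Nr1h3, the receptor known to act on both, was the lowest of the 9 genes, at 9.31 to 48.2 CPM. It was highest in Per2-/- on day 4 (48.2 CPM) and lowest in Per1-/- on day 10 (9.31 CPM).

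The genes of lipid uptake and lysosomal breakdown followed other orders. Lpl was at 1329, 1607 and 1794 CPM on day 4, at 2078, 579 and 1349.6 CPM on day 7 and at 1436, 495 and 572 CPM on day 10 in WT, Per1-/- and Per2-/-. Both mutants lay above WT on day 4 and below it on days 7 and 10, where Per1-/- stood at 0.278 and 0.345 and Per2-/- at 0.650 and 0.398 times WT. The test of Per1-/- against WT gave -1.01 ± 0.36 for Lpl (edgeR, adjusted p = 0.639) and did not pass, with -1.50 without WT of day 4 and -0.67 without WT of day 10. Adipocyte markers came to at most 2.23 CPM in these macrophage-like sums. Trem2 varied least, from 789.8 CPM in WT on day 4 to 1224 CPM in Per2-/- on day 10, and both mutants were above WT on each day. Its difference in Per1-/- was 0.33 ± 0.10 (edgeR, adjusted p = 0.536).

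Lipa was at 661, 769.9 and 740.3 CPM on day 4 in WT, Per1-/- and Per2-/-. It was at 575, 475 and 516 CPM at day 7 and at 534, 553 and 394 CPM at day 10. All 3 genotypes were lower on day 7 than on day 4 (ratios of 0.869, 0.617 and 0.697), and the test gave -0.43 ± 0.14 (edgeR, adjusted p = 0.15), which did not pass. Gpnmb was at 1776, 2454 and 2734 CPM on day 4, then 2057, 1466 and 1010.5 CPM at day 7 and 1164, 1405 and 761.5 CPM at day 10. In Per2-/- it was the highest of the 3 genotypes on day 4 and the lowest on days 7 and 10. Described over the 3 days, the log2 difference of Per2-/- from WT was 0.30 ± 0.14 for Abca1, 0.20 ± 0.16 for Abcg1, -0.52 ± 0.35 for Lpl, 0.34 ± 0.10 for Trem2, 0.28 ± 0.36 for Nr1h3, -0.08 ± 0.14 for Lipa and -0.28 ± 0.29 for Gpnmb. The direction turned in cells with no UMI of the cell cycle list for Lpl (0.54), Lipa (0.53) and Gpnmb (1.16), without WT of day 4 for Nr1h3 (-0.17), without WT of day 7 for Gpnmb (0.072) and without Per2-/- of day 10, or WT of day 7, for Lipa (up to 0.060). The cells with no UMI of that list were few in each library of day 4, as given above for Pltp.

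**Figure D4:**
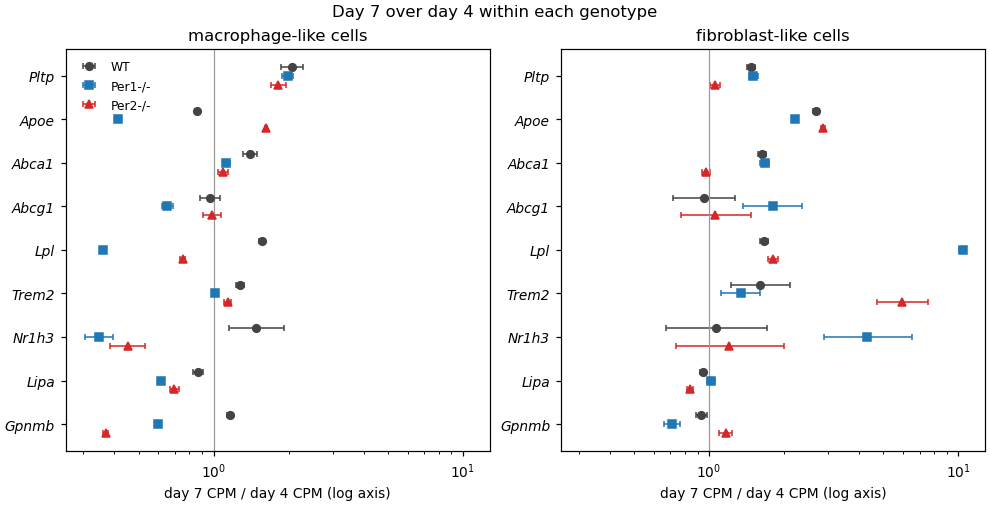
Day 7 CPM over day 4 CPM of the 9 genes within each genotype (log axis, 95% counting intervals as bars), in macrophage-like cells and in fibroblast-like cells. In macrophage-like cells the 3 genotypes lie close together for Pltp (1.82 to 2.07) and part widely for Apoe (0.414 to 1.62) and Lpl (0.360 to 1.56).

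Within libraries, macrophage-like cells were split by whether they held a UMI of Gpnmb, after thinning to 5000 UMI in the second draw, and the mean UMI of each other member was compared. The side without Gpnmb held 20 to 352 cells per library. Lpl (median ratio 2.09, from 1.46 to 9.07), Trem2 (1.79) and Lipa (1.62) were higher in the cells with Gpnmb in 9 of 9 libraries, Pltp (1.29) in 8, Apoe (1.55), Abca1 (1.46) and Abcg1 (1.09) in 7, and Nr1h3 (2.53) in 6 of the 7 that gave a ratio. Split by Trem2, the side without a UMI held only 14 to 65 cells per library. The cells with a UMI were higher in 9 of 9 libraries for Lpl (5.19, from 2.12 to 53.6), Gpnmb (4.27), Lipa (2.19) and Abca1 (1.43), in 7 for Pltp (1.28) and Apoe (1.23), in 6 for Abcg1 (1.07) and in the 5 that gave a ratio for Nr1h3 (3.17). Cells of 1 library share their source and these ratios are descriptions. By Pearson correlation of log2(CPM + 1) over 58 sums of class and library, which share libraries, the gene most like Pltp was Mertk (r = 0.94), a receptor for dying cells, followed by H2-DMb1 and Hacd4. Mertk in macrophage-like cells was at 43.7, 56.4 and 59.7 CPM on day 4, 65.7, 65.6 and 98.9 at day 7 and 77.4, 63.2 and 105 at day 10. The likeness was computed over these same sums, among them those from which the genes were chosen. The sums differ by class as well as by library, so a high r can come from the difference between classes alone. Likeness within macrophage-like cells was not tested. Apoe was most like Cat (0.86), Abca1 most like 2610507B11Rik (0.87), Abcg1 most like Dgkd (0.94), Lpl most like Sqor (0.91) and Pparg (0.89), Trem2 most like Fcer1g (0.99) and C1qc (0.99), Nr1h3 most like Gm34084 (0.89), Lipa most like Tgfb1 (0.96) and Gpnmb most like Sirpa (0.96).

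In fibroblast-like cells, which the stated reason for choosing the genes did not name, the Per2-/- difference of Pltp did not pass the test. Pltp was at 36.9, 33.1 and 29.1 CPM on day 4, 54.4, 49.96 and 30.8 at day 7 and 53.8, 46.5 and 63.4 at day 10 in WT, Per1-/- and Per2-/-, and Per2-/- against WT gave -0.22 ± 0.22 (edgeR, adjusted p = 0.782). Apoe in Per2-/- was above WT on each day, at 1.38, 1.47 and 2.40 times, with a log2 difference of 0.78 ± 0.26 that did not pass (edgeR, adjusted p = 0.566). Gpnmb was lower than in WT on each day in both mutants, by -0.82 ± 0.16 in Per1-/- (edgeR, adjusted p = 0.446; with DESeq2, adjusted p = 0.00198, and with edgeR without Per1-/- of day 4, adjusted p = 0.0140) and by -0.49 ± 0.15 in Per2-/- (edgeR, adjusted p = 0.564). Among 16970 genes, edgeR called 0 higher (0%) and 0 lower in either genotype, with 1480 genes in Per1-/- and 1339 in Per2-/- at an unadjusted p under 0.05, whereas DESeq2 called 109 higher and 105 lower in Per1-/- and 48 and 85 in Per2-/-. At an unadjusted p under 0.05 edgeR had 3 of 9 members in Per1-/- and 5 in Per2-/-. The member called by DESeq2 was Gpnmb in Per1-/- and Trem2 (higher) in Per2-/-, where Trem2 ranged from 0.801 to 6.66 CPM over the 9 fibroblast-like sums and was highest, as the macrophage markers were, in Per2-/- of days 7 and 10.

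Lpl in fibroblast-like cells parted in Per1-/-, at 27.7, 289 and 781 CPM on days 4, 7 and 10, while WT held 47.8, 79.4 and 178 and Per2-/- 26.8, 48.6 and 95.8 CPM. Per1-/- stood at 3.64 and 4.39 times WT on days 7 and 10 but at 0.580 times on day 4, and the fitted difference of 1.36 ± 0.58 did not pass (edgeR, adjusted p = 0.570). It did pass without Per1-/- of day 4 (2.07, adjusted p = 0.0014) and was lowest without Per1-/- of day 10 (0.78). Nr1h3 also passed without Per1-/- of day 4 (1.71, adjusted p = 0.0494). In that fit 240 genes were called higher and 285 lower, and the Per1-/- libraries left in it were the 2 without Xist. The 8 adipocyte markers moved alongside in the same sums, to 16.5 and then 94.4 CPM in Per1-/- at days 7 and 10, when the other genotypes held 2.48 to 3.61 and 26.0 to 30.4 CPM. Their part in the Lpl values was not tested. Apoe rose in fibroblast-like cells from day 4 to day 7, from 83.0, 85.2 and 114 CPM to 223, 188 and 327 CPM, by 1.36 ± 0.26 on the log2 scale (edgeR, adjusted p = 0.0489). It was the only member called there, among 1.17% of genes called higher and 1.24% lower, and the call was lost with size factors by the median of ratios (adjusted p = 0.0520) and without any 1 of the 6 libraries of days 4 and 7 (0.0858 to 0.185) or without Per2-/- of day 10 (0.0687), with the log2 difference at 1.12 to 1.56. On day 10 Apoe stood at 347, 798 and 832 CPM. The macrophage markers in these fibroblast-like sums came to 21.3 to 42.5, 35.5 to 98.3 and 33.8 to 124 CPM on days 4, 7 and 10, and their part in the Apoe values was not tested. Lpl (1.39 ± 0.57, adjusted p = 0.230) and Pltp (0.42 ± 0.22, adjusted p = 0.338) did not pass with edgeR.

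The difference between the classes in their day 4 to day 7 change was tested in a joint model. For Pltp it was 0.60 ± 0.21 higher in macrophage-like cells (edgeR, adjusted p = 0.220), for Apoe -1.57 ± 0.67 (adjusted p = 0.309) and for Lpl -1.98 ± 0.80 (adjusted p = 0.279), so no member passed, with 5 of 9 at an unadjusted p under 0.05 (15.3% of all genes were) and 0 called by DESeq2. A call was gained by Pltp without Per2-/- of day 10 (0.61, edgeR, adjusted p = 0.0309) and by Apoe without Per1-/- of day 10 (-1.59, adjusted p = 0.0381). With each library left out, Pltp ranged from 0.37 to 0.73, Apoe from -2.11 to -0.73 and Lpl from -3.08 without WT of day 4 to -0.70 without Per1-/- of day 4. Over 16443 genes 0.401% were called higher and 0.292% lower.

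Among 8 lists of related genes, cholesterol synthesis and other targets of SREBP2 (22 genes, all measured) were the only ones with any call in that test. The lists were chosen with earlier results of these data known. SREBP2 is the factor that switches on these genes when membrane cholesterol is low, and LXR acts on the opposite side of the same balance. Of the 22, 17 were called higher in macrophage-like cells relative to fibroblast-like cells and 0 lower, with a median difference of 1.33 on the log2 scale against 0.0024 over all genes. Among them were Fdps (1.97 ± 0.23, adjusted p = 0.00799), which makes farnesyl pyrophosphate, and Stard4 (1.91 ± 0.18, adjusted p = 0.00543), a carrier of cholesterol in the cytosol (all edgeR). Fdps in macrophage-like cells went from 35.0, 28.7 and 26.4 CPM on day 4 to 30.8, 75.8 and 58.3 CPM on day 7 in WT, Per1-/- and Per2-/-. In fibroblast-like cells it went from 78.9, 81.3 and 76.7 CPM to 28.2, 42.3 and 43.0 CPM.

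The fibroblast-like cells gave part of this on their own. There 7 of the 22 genes fell from day 4 to day 7, among them Fdps (-1.11 ± 0.14, adjusted p = 0.0226), Mvd (-0.83 ± 0.13, adjusted p = 0.0338) and Idi1 (-0.82 ± 0.16, adjusted p = 0.0482), and 19 of 22 had a lower level on day 7 in all 3 genotypes. Over all genes 1.24% were called lower there. The count of 7 was 0 without Per2-/- of day 4 or without any 1 library of day 7, 1 without WT of day 4, 3 without Per1-/- of day 10, 1 without all of day 10 and 10 without Per1-/- of day 4. The call of Fdps was lost without 4 of the 9 libraries, that of Mvd without 6 and that of Idi1 without 8, while the log2 differences ran from -1.23 to -0.92, from -0.93 to -0.71 and from -1.04 to -0.69. The cell cycle list also went down in the same sums, from 627, 721 and 747 CPM on day 4 to 327, 313 and 325 CPM on day 7 in WT, Per1-/- and Per2-/-, and its part in these values was not tested. In macrophage-like cells 0 of 22 were called by edgeR, 20 had an unadjusted p under 0.05 (19.6% of all genes did) and DESeq2 called 9, among 290 genes it called higher, with a median of 0.85 and 12 of 22 higher in all 3 genotypes. The summed level of the list in macrophage-like cells was 474 CPM in WT on both day 4 and day 7 and 835 CPM on day 10. It went from 409 to 991 and 1489.6 CPM in Per1-/- and from 426 to 779.6 and 777 CPM in Per2-/-. In WT the day 4 and day 7 sums were nearly equal. For the class difference, the count of 17 changed with single libraries: it was 21 without Per2-/- of day 4, 0 without Per1-/- of day 7, 3 without Per2-/- of day 7, 6 without Per1-/- of day 4, 9 without WT of day 10, 10 without WT of day 7 and 5 without all of day 10. The median difference of the list stayed between 1.13 and 1.58 with each library left out, Fdps between 1.61 and 2.21 (call kept in 7 of 9 fits) and Stard4 between 1.72 and 2.06 (8 of 9).

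**Figure D5:**
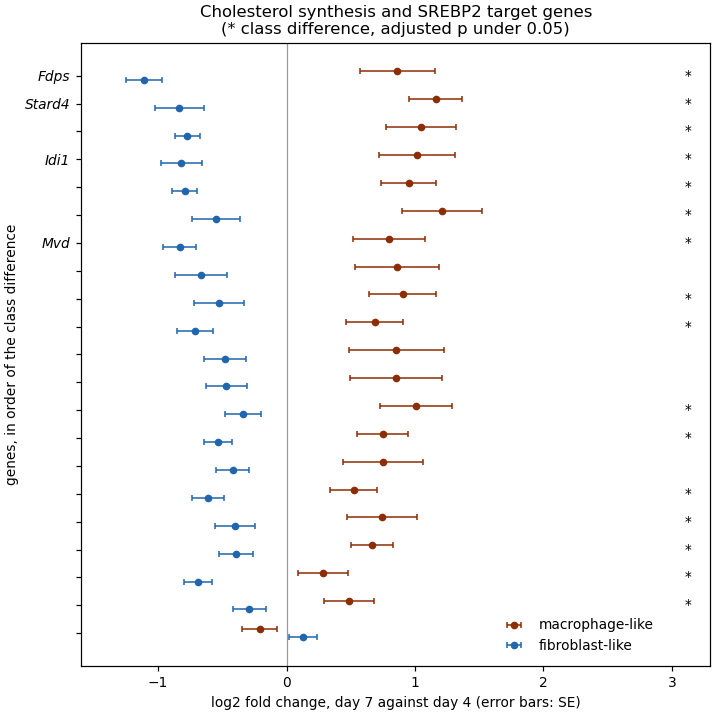
Log2 fold change from day 4 to day 7 (± SE) of 21 of the 22 cholesterol synthesis and SREBP2 target genes, 1 gene per row in order of the class difference with only genes named in the text labelled, in macrophage-like and fibroblast-like cells, with an asterisk where the class difference had an adjusted p under 0.05. Most macrophage-like values lie to the right of 0 (median 0.85 over all 22) and most fibroblast-like values to the left (median -0.54 over all 22).

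The other 7 lists held few calls. In macrophage-like cells from day 4 to day 7 and in Per1-/- against WT, edgeR called 0 of the 85 genes tested, with 22 and 18 at an unadjusted p under 0.05, as were 19.6 and 7.21% of all genes. For the change to day 7 the median log2 differences were 0.21 for LXR and RXR receptors and corepressors (9 tested), 0.30 for other LXR targets (12), -0.23 for lipid uptake and scavenger receptors (11), 0.14 for lysosomal lipid breakdown and export (18), -0.11 for lipid droplets and cholesterol esters (11), -0.27 for lipase regulators (4) and -0.0045 for TREM2 signalling (20), beside -0.0078 over all genes. The abundant members did not pass between days 4 and 7: Fabp5, a fatty acid carrier, differed by -0.08 ± 0.15 (adjusted p = 0.773), Psap, the precursor of lysosomal lipid-binding proteins, by -0.18 ± 0.11 (adjusted p = 0.399), and Plin2, the coat protein of lipid droplets, by -0.44 ± 0.14 (adjusted p = 0.151). From day 7 to day 10 edgeR called 1 of the 85 genes tested, while 0.907% of all genes were called higher and 0.158% lower. This was Apoc2, an LXR target that activates lipoprotein lipase (edgeR, adjusted p = 3.07e-06). It was at 0.0943 to 0.20 CPM on day 7 and 19.0 to 25.2 CPM on day 10 in macrophage-like cells. However, in all cells of a library it had 0 to 6 UMI on days 4 and 7 and 275 to 918 on day 10, together with the change of gene annotation. In fibroblast-like cells from day 4 to day 7, Vldlr (0.73 ± 0.13, adjusted p = 0.0432), a receptor that binds apolipoprotein E, and Mgll (1.33 ± 0.24, adjusted p = 0.0439), which cleaves monoglycerides, rose. Lrp8 (-0.97 ± 0.17, adjusted p = 0.0407), also an apolipoprotein E receptor, Lipg (-1.51 ± 0.24, adjusted p = 0.0361), an endothelial lipase, and Arl4c (-0.96 ± 0.18, adjusted p = 0.0451), an LXR target, fell (all edgeR). These were 2 higher and 3 lower of 89 genes tested, while 1.17% of all genes were called higher and 1.24% lower. Of the 89, 20 had an unadjusted p under 0.05 with edgeR, as did 20.3% of all genes. Each of these 5 calls was lost without any 1 of the 6 libraries of days 4 and 7, without Per1-/- of day 10 and without all of day 10. Those of Vldlr, Lrp8 and Arl4c were also lost without WT of day 10. In these edgeR fits the adjusted p was up to 0.203 and the direction was kept.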

How the data were processed

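Single-cell 3′ RNA-seq was measured in 9 libraries of mouse cultures, 1 per genotype and day. The deposited values are UMI counts per gene and cell that the authors made with Cell Ranger against mm10. Per the file headers, days 4 and 7 were made with version 4.0.0 and day 10 with version 6.0.0, and the labels name 7.1. Only the 30406 genes common to both annotations were used. From these counts, cells under 3000 UMI or over 20% mitochondrial UMI were removed, 8442 predicted doublets were left out, and cells were clustered with scanpy 1.11.5 into 28 clusters, named "-like" from marker genes. The classes were rebuilt here, so they may differ from the study's.

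Raw counts were summed per class and library (at least 50 cells) and fitted with edgeR 4.0.16 quasi-likelihood tests on day plus genotype. The minimum of 50 cells was not held in the alternative with no cell cycle UMI, where the libraries of day 4 had fewer. With 1 library per group, days stand as repeats of a genotype and genotypes as repeats of a day, and p-values measure that spread only. A call is an adjusted p under 0.05 over all genes tested. The members, gene lists, motifs and tests were chosen with earlier results of these data known. All 9 members passed the filter on low counts and are named. From each list, up to 3 called genes with the largest fold are named, otherwise up to 2 of the most abundant. Some items, among them 1 gene of the cholesterol synthesis list that the rule would name, are not reported here. Ratios within a day or genotype carry 95% intervals for counting error only, since 1 cell suspension underlies each library. On simulated counts for day 7 against day 4 in macrophage-like cells, 74 of 100 genes changed 2-fold and 87 of 100 changed 4-fold were recovered, with 15 false calls, and for Per1-/- against WT there 58 and 89 of 100, with 7. Alternatives were DESeq2 1.42.0, other size factors, no filter, other cell selections, each library left out and, added after seeing the data, no shared barcodes.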

Additional observations from a re-analysis of the deposited data

Results flagged for a closer look

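The change from day 4 to day 7 differed between macrophage-like and fibroblast-like cells for 17 of the 22 cholesterol synthesis genes, by a test of the class difference itself (edgeR quasi-likelihood test, adjusted p under 0.05 over 16443 genes). Among them, Fdps had a log2 difference of 1.97 and Stard4 of 1.91. Over all genes 0.401% were called higher. The count was 0 without Per1-/- of day 7, 3 without Per2-/- of day 7, 5 without all of day 10 and 21 without Per2-/- of day 4, while Fdps stayed between 1.61 and 2.21 and Stard4 between 1.72 and 2.06 with each library left out. In WT the summed level of the list in macrophage-like cells was 474 CPM on both days. The list was chosen with earlier results of these data known, and no cause was tested. Groups of 1 library leave no sample to compare with others of its group.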

How the results depend on the processing

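The fitted differences and counts of calls were recomputed with DESeq2, other size factors, no filter on low counts, other choices of cells and each library left out. The macrophage-like levels were recomputed with other choices of cells and the shares of cells with a UMI at other depths, while variances, splits of cells and correlations were not recomputed. For the 18 member tests followed by value, 308 recomputed values were had, of which 287 kept direction and side of the threshold, 13 lost the call, 5 gained it and 3 reversed, and the causes were not tested. Over all 63 member tests the 1077 values held 1019, 13, 8 and 37 of these, the added gains being Trem2 with DESeq2 in Per2-/- fibroblast-like cells, Trem2 from day 4 to day 7 in macrophage-like cells with no cell cycle UMI and Nr1h3 in Per1-/- fibroblast-like cells, and none of the 37 reversed values was called before or after. The 3 reversals were Lipa from day 4 to day 7 at 0.91 in cells with no cell cycle UMI, Apoe in Per1-/- against WT in macrophage-like cells at 0.034 without Per1-/- of day 10 (lowest -1.58), and Pltp in Per2-/- against WT in fibroblast-like cells at 0.060 without Per2-/- of day 7 (lowest -0.55). With 1 library per group, 6459 macrophage-like cells do not replace replicates, and WT and Per2-/- of day 4 held only 155 and 198 of them. Few macrophage-like cells in each library of day 4 had no cell cycle UMI, so every value and call from that choice of cells is weak. The marker gate took 946 cells in WT of day 10, of which 703 lay in unnamed clusters, against 227 called from clusters. The day tests held genotype as a block, and the labels give no replicate numbers for a further one.

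In macrophage-like cells, Per1-/- against WT gave 28 higher and 34 lower genes with DESeq2, 25 and 25 without the filter, 1 higher with doublets kept or with at least 6000 UMI, 1 and 2 without shared barcodes (a choice made after seeing the data), 2 and 6 in cells with no cell cycle UMI, and 0 lower under the marker gate or without day 10. Day 7 against day 4 gave 290 and 221 (DESeq2), 326 and 196 (no filter), 126 and 143 (no cell cycle UMI) and 0 and 0 under the gate or without day 10. Day 10 against day 7 gave 40 lower with DESeq2 and 47 without the filter, 41 and 8 with no cell cycle UMI and 73 and 11 under the gate. In fibroblast-like cells DESeq2 gave 109 and 105 for Per1-/-, 48 and 85 for Per2-/-, and 674 and 811 for day 7 against day 4, which came to 37 and 84 without day 10. The class difference gave 253 and 199 (DESeq2), 189 higher (no filter) and 11 and 11 without day 10.

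For the members, the count called from day 4 to day 7 in macrophage-like cells was 2 with no cell cycle UMI and 0 under the gate or without day 10. In fibroblast-like cells it was 0 with size factors by the median of ratios, and DESeq2 called 1 member in each genotype contrast. Cholesterol synthesis genes called were 9 (DESeq2), 11 (no filter) and 1 (no cell cycle UMI) in macrophage-like cells, 11 (DESeq2) and 1 (without day 10) in fibroblast-like cells and 5 without day 10 for the class difference. In cells with no cell cycle UMI the description of Per2-/- against WT moved to 1.12 for Pltp, 0.58 for Abcg1, 0.54 for Lpl, 1.39 for Trem2, 0.53 for Lipa and 1.16 for Gpnmb, which turned the direction for Lpl, Lipa and Gpnmb. These values rest on few cells in the libraries of day 4. Pltp in Per1-/- against Per2-/- was -0.59, and -0.35 in those cells, -0.48 under the gate and -0.69 in the cells with less fibroblast marker RNA. Shares of cells with a UMI, unthinned and at 10000 UMI, were 88.2 and 76.4% for Pltp, 93.9 and 86.2% for Abca1, 78.0 and 65.2% for Abcg1, 23.9 and 15.4% for Nr1h3 and 97.5 and 96.0% for Lipa.

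When each library was left out, the counts higher and lower ranged from 0 to 6 and 0 to 8 (Per1-/- against WT, macrophage-like), 0 to 79 and 0 to 211 (day 7 against day 4), 71 to 150 and 10 to 67 (day 10 against day 7), 0 to 240 and 0 to 285 (Per1-/-, fibroblast-like), 0 and 0 throughout (Per2-/-), 0 to 215 and 0 to 321 (day 7 against day 4) and 0 to 334 and 0 to 569 (class difference). Members called ranged from 0 to 1 in both day 7 comparisons and the class difference and from 0 to 3 in Per1-/- fibroblast-like cells. Cholesterol synthesis genes called ranged from 0 to 2, 0 to 10 and 0 to 21 in macrophage-like cells, fibroblast-like cells and their difference. The Per2-/- values that follow are descriptions, and the choice of genes was made from that of Pltp. Per2-/- against WT ranged from 0.64 to 0.77 (Pltp), 1.15 to 2.21 (Apoe), 0.13 to 0.47 (Abca1), 0.029 to 0.31 (Abcg1), -0.98 to -0.21 (Lpl), 0.29 to 0.42 (Trem2), -0.17 to 0.71 (Nr1h3), -0.21 to 0.060 (Lipa) and -0.71 to 0.072 (Gpnmb), the last 3 of which changed direction, and Per1-/- against Per2-/- from -0.65 to -0.52 (Pltp) and -3.24 to -1.67 (Apoe).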
